A study of Mus musculus with 16 samples.

Results

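Lysophospholipid acyltransferases put a fatty acid back on a lysophospholipid, and *Mboat7*, the gene deleted from adipocytes in these mice, encodes the member that handles lysophosphatidylinositol (LPI). The genes described here were 10 named genes, namely *Mboat7*, its relatives *Mboat1*, *Mboat2* and *Lpcat3* (also called *Mboat5*), the acyltransferases *Lpcat1*, *Lpcat2*, *Lpcat4*, *Lpgat1* and *Lclat1*, and the phospholipase *Pla2g4a*. They were taken by symbol from the deposited expression table, which held 9 of the 10 among its 19373 genes, while *Lpcat4* is not listed there. The comparisons ask whether the other acyltransferases differ where adipocytes lack *Mboat7*, and whether they differ between diets.

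RNA from gonadal white adipose tissue (gWAT) of 16 male C57Bl6/J mice was sequenced as whole tissue, with 1 library per mouse and 4 mice in each of 4 groups. The Flox mice were controls with both *Mboat7* alleles floxed and no Cre. The ASKO mice carried the same floxed alleles and a Cre recombinase under the adiponectin promoter, so the deletion is limited to cells that use this promoter and the other cells of the tissue keep *Mboat7*. Both genotypes spent 20 weeks on rodent chow or on a high-fat diet (HFD), and all mice were age-matched, fasted briefly and perfused with saline before the tissue was taken.

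In the Lands cycle, a phospholipase A2 removes the fatty acid from the middle carbon of a phospholipid, and an acyltransferase attaches another, so that the fatty acids of a membrane can be exchanged without a new head group. MBOAT7 prefers arachidonate and LPI, and its product is the arachidonate-rich phosphatidylinositol typical of mammalian membranes. Related enzymes carry out the same kind of step on the lysophospholipids with choline, ethanolamine, serine or glycerol head groups.

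Most of these genes were measured at the edge of detection. The deposited unit is FPKM, the fragments of a gene divided by its exon length and by the size of the library, and 14373 of the 19373 genes carry a 0 in 1 or more mice. Low values were taken to fall on steps, and the step that fitted best on a transcript of 1 kb was between 2.44 and 4.41 FPKM (median 2.94). Depending on the mouse, 51.3% to 85.7% of low values were no more than 0.2 steps from a whole number of steps. An even spread would give 40% for a step fixed beforehand, but each step was chosen to fit these same values. The share is therefore no test of the step, which is less certain in some mice. Taken as the worth of 1 fragment, the step gives, with the longest annotated transcript of a gene, an estimate of the largest number of fragments that a value can stand for. On this estimate *Lpgat1* rested on up to 226.6 fragments in a mouse and *Lpcat3* on up to 20.1. No other member exceeded 8.1 fragments in any mouse. Only *Lpgat1* and *Lpcat3* were above 0 in all 16 mice, and 7 of the 9 listed members were listed at 0 in at least 1 mouse. A value listed at 0 is not evidence that the gene is silent, and no fold is given against such a value.

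**Figure D1:**
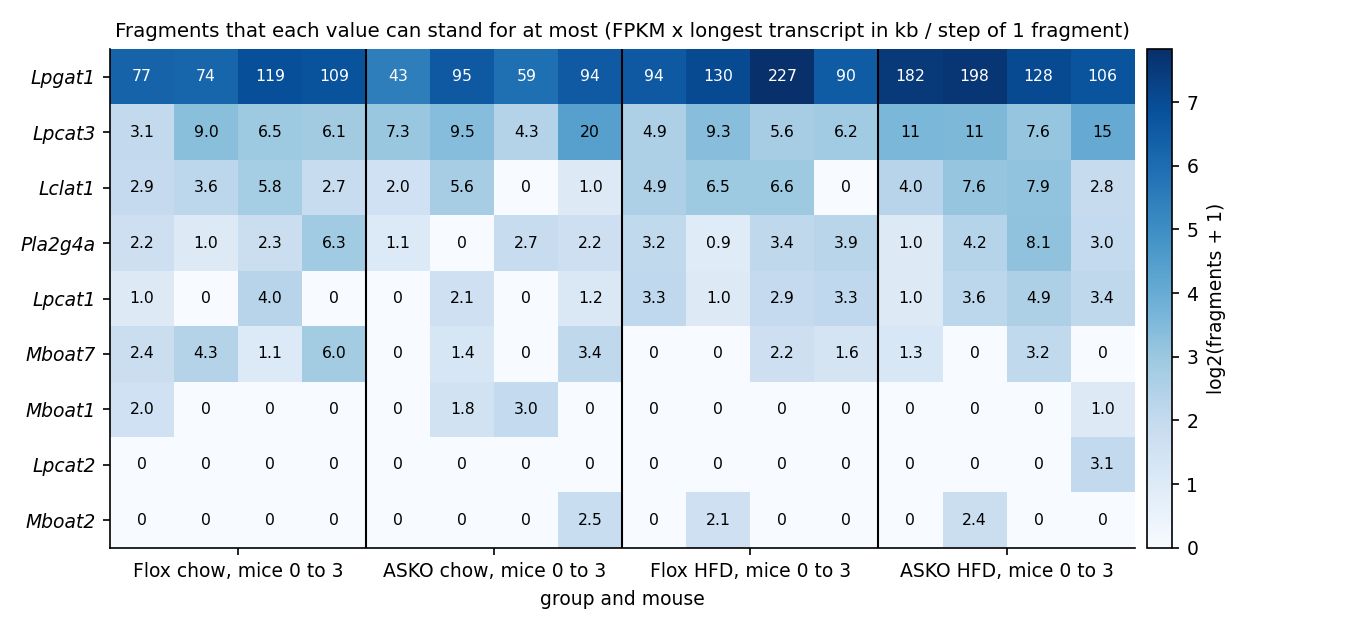
Rows are the 9 listed genes and columns the 16 mice, and each number is the largest count of fragments that the FPKM value can stand for (colour: log2 of that count plus 1). *Lpgat1* stands on between 43.3 and 226.6 fragments in every mouse, while *Mboat7* and the genes below it never exceed 6.0.

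All 8 adipocyte marker genes looked up were listed and above 0 in every group, with a summed level of 9356 to 15141 FPKM in Flox and 7901 to 24056 in ASKO mice on chow, and of 4641 to 10623 and 6389 to 7198 on HFD. Of 4 testis markers none was listed, and of 4 epididymis markers the 1 listed was at or below 0.74 FPKM, so the neighbouring reproductive tissue was at or near 0. The 8 macrophage markers summed to 117 to 158 FPKM in Flox and 122 to 162 in ASKO mice on chow, against 271 to 416 and 384 to 515 on HFD. The HFD and chow ranges of this sum did not overlap in either genotype. The summed macrophage marker RNA therefore moved with diet, and on HFD it ran higher in ASKO mice with overlapping ranges. Taken singly, 7 of the 8 markers were higher on HFD and 1 was lower, averaged over the genotypes. Between genotypes on HFD, 7 were higher and 1 was lower in ASKO mice. In whole tissue, fewer cells of a type and less RNA per cell cannot be told apart. The 4 fibroblast markers ran from 219 to 408 FPKM in Flox and from 370 to 533 in ASKO mice on HFD, and the 4 endothelial markers overlapped in all groups (17.8 to 64.0 FPKM). Of the T and B cell markers 4 of 6 were listed, with sums of at most 11.3 FPKM. The 4 mesothelial markers reached 31.2 FPKM on chow and at most 10.9 on HFD. *Acta1* was the 1 listed muscle marker of 4, at up to 11.7 FPKM.

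The targeted gene came first. *Mboat7* (ENSMUSG00000035596.14, GRCm38/mm10 chr7:3677789-3693523, minus strand) had 2.42, 4.33, 0.902 and 4.99 FPKM in the 4 Flox mice on chow. The 4 ASKO mice on chow had 0, 1.39, 0 and 2.89 FPKM. The Flox mice on chow were all above 0 and held the 2 highest values of the 16 mice, but their lowest value lay below those of 2 ASKO mice, so the groups overlap. On HFD the Flox mice had 0, 0, 2.15 and 1.61 FPKM and the ASKO mice had 1.14, 0, 2.60 and 0. These groups overlap, with 2 of 4 mice at 0 in each.

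On the log2(FPKM + 1) scale, which understates the change of low genes, the difference in *Mboat7* between ASKO and Flox mice on chow was -1.12, and its 95% interval ran from -2.42 to 0.18 (limma, adjusted p = 0.983). An exact permutation test over the 70 ways to split 8 mice gave p = 0.143 (two-sided), where the smallest possible p is 0.0286. On HFD the difference was -0.02 with an interval from -1.32 to 1.28 (exact permutation p = 1). Averaged over both diets it was -0.57 (95% interval -1.49 to 0.35), with p = 0.221 in an exact permutation test that exchanged genotypes within each diet (4900 arrangements). The genotype-by-diet interaction was 1.10 with an interval from -0.74 to 2.94. The table thus did not separate ASKO from Flox mice by *Mboat7*, on either diet, beyond the spread of the mice, and at 6.0 fragments or fewer per mouse it could not bear a fine comparison.

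The locus and the unit limit this check of the labels. An FPKM value sums every exon of the gene, and the exons between the loxP sites are not named in the sources used here, so fragments from a shortened transcript would still count. The first 661 bases of *Mboat7* also overlap *Tsen34*, a tRNA splicing endonuclease subunit gene on the opposite strand, and 277 exon bases (3.3% of those of *Mboat7*) belong to both. Whether strand entered the counting is not stated, so fragments from these bases cannot be assigned. *Tsen34* was higher than *Mboat7* in each mouse, at 24.4 ± 11.1 FPKM (SD, n = 4) in Flox and 27.6 ± 18.1 in ASKO mice on chow, and 26.2 ± 12.3 and 29.0 ± 13.6 on HFD. Its genotype difference averaged over diets was 0.07 on the log2 scale (95% interval -0.69 to 0.83).

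**Figure D2:**
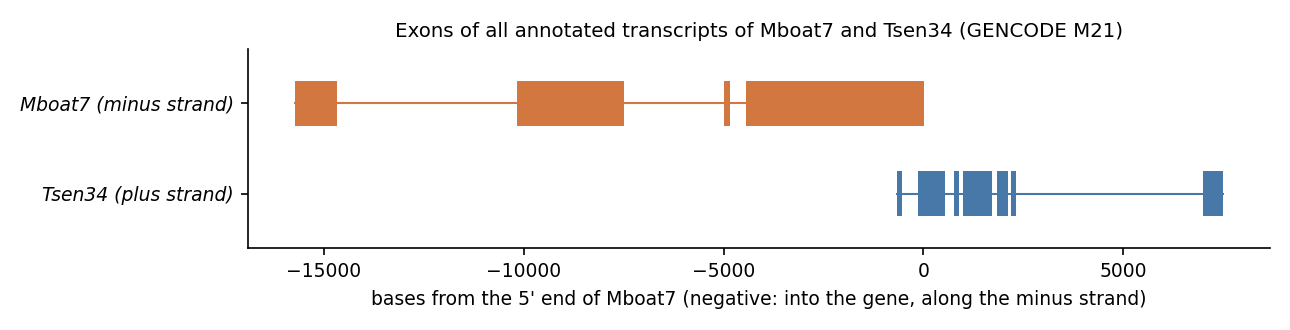
Boxes are the exons of all annotated transcripts of *Mboat7* (top, minus strand) and *Tsen34* (bottom, plus strand), and the horizontal axis gives bases from the 5′ end of *Mboat7*. The genes face away from each other and share 661 bases at their starts.

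The enzymes nearest to MBOAT7 in substrate were described next. *Lclat1* (chr17:73107985-73243368), the lysocardiolipin acyltransferase, which also accepts LPI, had 2.26, 2.74, 3.73 and 1.74 FPKM in Flox mice on chow and 1.93, 4.31, 0 and 0.630 in ASKO mice on chow. On HFD the values were 2.70, 5.01, 5.01 and 0 in Flox and 2.54, 4.15, 4.91 and 1.80 in ASKO mice. All groups overlap, and the genotype differences were -0.66 on chow (95% interval -1.97 to 0.65) and 0.29 on HFD (-1.02 to 1.60) on the log2 scale. Exact permutation tests of these differences gave p = 0.314 and p = 0.886 (n = 4 per group).

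*Lpgat1* (chr1:191717834-191784255), which acylates lysophosphatidylglycerol and other lysophospholipids, was the most abundant member. It had 36.9, 34.9, 47.6 and 42.5 FPKM in Flox and 26.4, 44.6, 24.4 and 37.5 FPKM in ASKO mice on chow. On HFD it had 31.9, 62.1, 106.2 and 42.6 FPKM in Flox and 72.1, 67.2, 49.4 and 41.7 FPKM in ASKO mice. The highest value belonged to a Flox mouse on HFD, whose group also held the lowest value on that diet. The genotype difference was -0.31 (95% interval -1.05 to 0.42) on chow and 0.04 (-0.70 to 0.77) on HFD, so genotype differences in *Lpgat1* mRNA beyond 0.616-fold to 1.71-fold on HFD lay outside the interval. The exact permutation p was 0.286 on chow and 0.914 on HFD.

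*Lpcat3* (chr6:124663027-124704418) inserts arachidonate and linoleate into phosphatidylcholine and phosphatidylethanolamine and is the other arachidonate-preferring member of the MBOAT family. In Flox mice on chow it had 4.62, 12.9, 7.92 and 7.28 FPKM (8.19 ± 3.46, SD, n = 4), and in ASKO mice on chow 13.6, 13.7, 5.43 and 24.5 FPKM (14.3 ± 7.84). On HFD it had 5.03, 13.5, 7.94 and 8.99 FPKM in Flox mice (8.87 ± 3.53) and 13.4, 11.003, 8.88 and 18.3 FPKM in ASKO mice (12.9 ± 4.03). The ASKO mean was the higher on both diets, and the groups overlap on both. The log2 difference was 0.65 on chow (95% interval -0.29 to 1.60) and 0.52 on HFD (-0.43 to 1.46), with an exact permutation p of 0.229 in each case. Single mice moved these values, to 0.35 without ASKO replicate 3 and 1.02 without ASKO replicate 2 on chow, and to 0.30 without Flox replicate 0 on HFD. Averaged over both diets it was 0.59 (95% interval -0.08 to 1.25, limma adjusted p = 0.9999), and the exact permutation test within diets gave p = 0.0616. This was the member with the lowest genotype p averaged over the diets, and it did not pass. A rise of up to 2.38-fold and a fall down to 0.944-fold both lie within its interval. *Lpcat3* shares 334 exon bases (10.2%) with *Emg1*, a ribosome biogenesis gene on the opposite strand, whose averaged genotype difference was 0.45 (95% interval -0.80 to 1.70).

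The acyltransferases for choline and ethanolamine lysophospholipids outside this branch were low. *Lpcat1* (chr13:73467197-73516422), best known for the saturated phosphatidylcholine of lung surfactant, had 0.925, 0, 3.17 and 0 FPKM in Flox and 0, 1.94, 0 and 0.950 in ASKO mice on chow. On HFD it had 2.18, 0.983, 2.64 and 3.11 FPKM in Flox and 0.767, 2.37, 3.70 and 2.64 in ASKO mice. It was thus above 0 in every mouse on HFD and at 0 in 2 of 4 mice of each genotype on chow. Its genotype differences were -0.12 on chow and 0.03 on HFD, with intervals from -1.27 to 1.03 and from -1.12 to 1.18 (exact permutation p = 1 and p = 0.914).

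*Lpcat2* (chr8:92855339-92919279), the inflammatory-cell enzyme that also makes platelet-activating factor, was listed at 3.14 FPKM in 1 ASKO mouse on HFD and at 0 in the other 15 mice. That value stands for at most 3.1 fragments. *Mboat1* (chr13:30136489-30246717), which acylates lysophosphatidylserine and lysophosphatidylethanolamine, was above 0 in 4 mice, at 2.37 FPKM in a Flox mouse and at 2.10 and 3.08 FPKM in 2 ASKO mice on chow, and at 1.03 FPKM in an ASKO mouse on HFD. *Mboat2* (chr12:24830879-24964397), which handles lysophosphatidylcholine and lysophosphatidylethanolamine, was above 0 in 3 mice, at 1.06, 1.083 and 0.875 FPKM, in 3 different groups. *Mboat2* and *Lpcat2* fell below the filter of at least 1 FPKM in at least 4 mice and were not tested in limma. *Mboat1* met it through exactly these 4 mice, with at most 3.0 fragments in any of them, and its genotype differences were 0.48 (95% interval -0.60 to 1.55) on chow and 0.26 (-0.82 to 1.33) on HFD. *Lpcat4*, at chr2:112239468-112247111 in the annotation, makes phosphatidylethanolamine and phosphatidylcholine and was not analysed here.

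*Pla2g4a* (chr1:149829618-149961290, minus strand) encodes the cytosolic phospholipase A2 that releases arachidonate and so supplies both free arachidonate and lysophospholipid. It had 2.19, 0.951, 1.95 and 5.14 FPKM in Flox and 1.45, 0, 2.31 and 1.81 in ASKO mice on chow. On HFD it had 2.27, 0.949, 3.29 and 3.86 FPKM in Flox and 0.870, 3.003, 6.58 and 2.46 in ASKO mice. Every group reached below 1 FPKM in its lowest mouse, and all groups overlap. The genotype difference was -0.58 (95% interval -1.75 to 0.59) on chow and 0.14 (-1.03 to 1.31) on HFD, with exact permutation p values of 0.371 and 0.857.

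**Figure D3:**
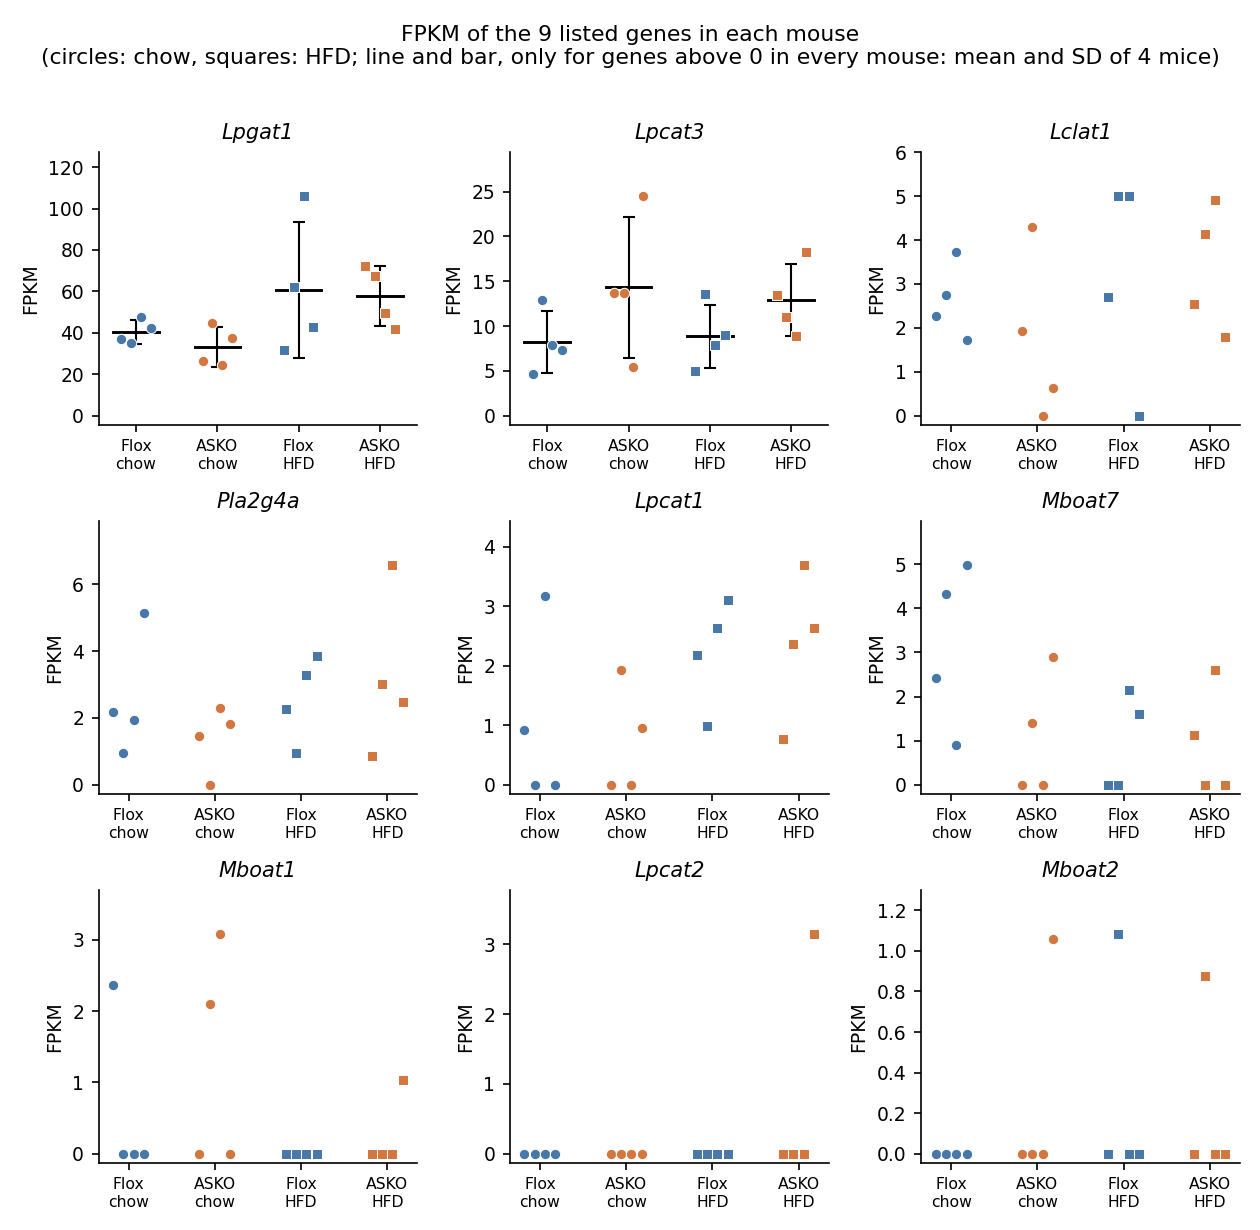
Each point is the FPKM value of 1 mouse, with the 4 groups on the horizontal axis (blue: Flox, orange: ASKO) and a vertical axis of its own for each gene. Lines and bars (mean and SD of 4 mice) are drawn only for *Lpgat1* and *Lpcat3*, the genes above 0 in every mouse. No gene has groups of the same diet that are fully apart.

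Across the 7 members that could be tested, none passed the limits (limma, Benjamini-Hochberg adjusted p under 0.05 together with a log2 difference above 0.5 in size) for genotype on chow, on HFD or averaged over the diets, and none had an unadjusted p under 0.05. Over all 13147 genes tested, 0.00761% passed on chow and 0.00761% on HFD, which is 1 gene each, and 0% passed for the average, although 631, 677 and 495 genes had an unadjusted p under 0.05. The count of members therefore stood where the background stood and is no result about them. On chow the members' log2 differences ran from -1.12 to 0.65, with 2 above and 5 below 0 (median -0.31, all genes 0.00). On HFD they ran from -0.02 to 0.52, with 6 above and 1 below 0 (median 0.14, all genes 0.02). The 2 comparisons use different mice. No member had groups that did not overlap, which held for 2.19% of all tested genes on chow and 3.38% on HFD. Of 36 exact permutation tests of the 9 listed members, over both genotype and both diet comparisons, 0 gave p under 0.05 (lowest 0.0571).

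The intervals show how large a difference on the log2(FPKM + 1) scale could have been missed. This scale understates the fold of low genes, so for them the intervals do not bound the fold. With a pseudocount of 0.1 the *Mboat7* difference on chow was -2.58, outside the interval of -2.42 to 0.18. The full width of the intervals for the members within a diet was between 1.47 and 2.62 log2 units, with a median of 2.30. It was narrowest for *Lpgat1* and widest for *Lclat1* and *Mboat7*.

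**Figure D4:**
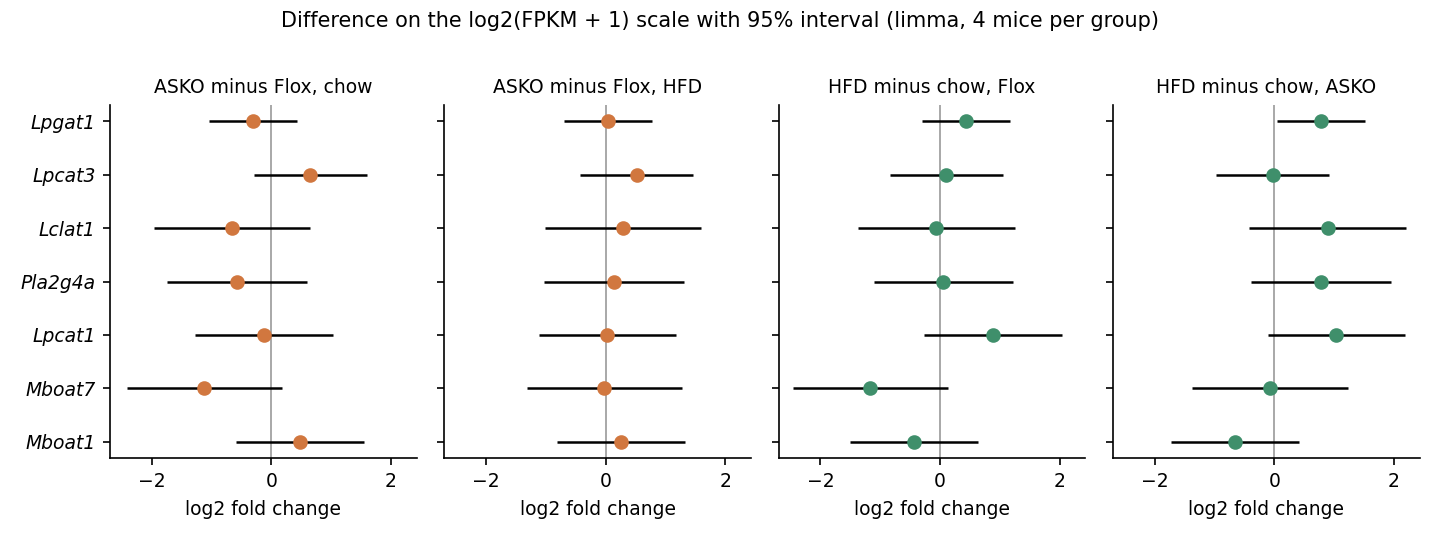
Points are log2 differences of mean log2(FPKM + 1) and lines their 95% intervals from limma, for the 7 tested genes (rows) in 4 comparisons (panels, 4 mice per group). The interval reaches 0 everywhere except for *Lpgat1* between diets in ASKO mice (0.05 to 1.52).

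Diet moved more genes than genotype, and no member passed there either. In Flox mice 2.91% of all genes passed the limits between HFD and chow, in ASKO mice 3.43%, and averaged over both genotypes 7.53%, and groups did not overlap for 8.34% of genes in Flox and 9.6% in ASKO mice. Of the 7 tested members 0 passed in each of the 3 comparisons, and 0 had groups that did not overlap. With so few members these counts lie near the shares of all genes and are no result about the members. The diet comparisons share their mice with the genotype comparisons and are not independent of them.

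Averaged over the genotypes, the 2 members with the lowest unadjusted p for diet were *Lpcat1* and *Lpgat1*, while in Flox mice alone *Mboat7* had the lowest (limma, 0.0761 before adjustment). *Lpcat1* was higher on HFD by 0.89 in Flox (95% interval -0.26 to 2.04) and by 1.04 in ASKO mice (-0.11 to 2.19), and the average was 0.96 (95% interval 0.15 to 1.78). The exact permutation test within genotypes gave p = 0.0216 for this average, and limma over all genes an adjusted p of 0.163. With a pseudocount of 0.1 this average was 2.42 (limma adjusted p = 0.147). *Lpgat1* was higher on HFD by 0.44 in Flox (-0.30 to 1.17; 0.12 without Flox replicate 2 and 0.69 without Flox replicate 0 on HFD) and by 0.78 in ASKO mice (0.05 to 1.52), with an average of 0.61 (95% interval 0.09 to 1.13). Its exact permutation test within genotypes gave p = 0.02, and limma an adjusted p of 0.167. Neither passed after adjustment over all genes. The summed macrophage markers rose over the same comparison, from at most 162 FPKM in every chow mouse to at least 271 in every HFD mouse, and their part in these values was not tested.

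*Mboat7* itself had a difference between HFD and chow of -1.16 in Flox mice (95% interval -2.47 to 0.14, exact permutation p = 0.114) and of -0.07 in ASKO mice (-1.37 to 1.23). The adipocyte markers moved over the same comparison. Averaged over the genotypes 5 of the 8 fell and 1, *Lep*, rose (limma), and *Adipoq*, the gene whose promoter drives the Cre, fell from 986 to 1871 FPKM in Flox mice on chow to 367 to 539 on HFD. Their part in the values of *Mboat7* was not tested. The other members had diet averages of 0.42 for *Lclat1*, 0.42 for *Pla2g4a*, 0.04 for *Lpcat3* and -0.55 for *Mboat1*, and each 95% interval included 0.

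No difference between genotypes in the response to diet was detected for any tested member, and the wide intervals do not exclude one. The interaction, which is the genotype difference on HFD minus that on chow, ran from -0.22 for *Mboat1* to 1.10 for *Mboat7* (lowest limma adjusted p = 0.868), with intervals between 2.08 and 3.70 log2 units wide. Over all genes 0% passed, with 827 genes at an unadjusted p under 0.05.

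FPKM is scaled by length, so levels may be set beside each other. These means pool all groups, the mice with the deletion included. Over the 16 mice *Lpgat1* averaged 48.0 ± 20.6 FPKM (SD, n = 16) and stood higher than 93.7% of the genes listed. *Lpcat3* averaged 11.1 ± 5.25 FPKM (80.9%). *Lpgat1* exceeded *Lpcat3* in 16 of 16 mice, and *Lpcat3* exceeded *Lclat1* in 16 of 16. Below them the order was not fixed. *Lclat1* (mean 2.72 FPKM) exceeded *Pla2g4a* (2.44) in 10 of 16 mice, *Pla2g4a* exceeded *Lpcat1* (1.59) in 12, and *Lpcat1* exceeded *Mboat7* (1.53) in 9 with 2 ties at 0. *Mboat1* (0.536), *Lpcat2* (0.197) and *Mboat2* (0.189) followed, each at 0 in 12 or more mice. The place of *Mboat7* depended on the group. In Flox mice on chow it exceeded *Lclat1* and *Lpcat1* in 3 of 4 mice, *Pla2g4a* in 2 of 4, and *Mboat1* and *Mboat2* in 4 of 4. In Flox mice on HFD it exceeded *Lclat1* in 1 of 4 mice and *Pla2g4a* and *Lpcat1* in 0 of 4.

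The genes most like *Mboat7* and *Lpgat1* across the 16 mice were found by the root-mean-square distance between standardised log2(FPKM + 1) profiles, as a description. For *Mboat7* these were *Rgma* (distance 0.497), *A630072M18Rik* (0.612) and *A230103L15Rik* (0.629), where the median distance of all genes was 1.43. With the group means taken out, *Rgma* was again nearest (0.524), followed by *RP23-235I2.4* (0.538) and *Abhd17a* (0.559). For *Lpgat1* they were *Spock1* (0.511), *4931406C07Rik* (0.543) and *Gm13157* (0.544), and with the group means taken out *Klhl24* (0.320), *Npr3* (0.409) and *Gm13157* (0.439). The *Mboat7* profile was at 0 in 6 of the 16 mice and stood on at most 6.0 fragments in the others.

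The members were then set beside the pathways they work in. The 8 lists used named 129 genes, of which 114 were listed and 96 tested, covering glycerol-3-phosphate and lysophosphatidate acyltransferases, further MBOAT enzymes, phospholipases, phosphatidylinositol synthesis with the LPI receptor, acyl-CoA supply, arachidonate oxygenation, other phospholipid synthesis, and further acyltransferase-like genes. None of the 96 passed the limits for genotype on chow, on HFD or averaged, nor for the interaction. On HFD 10 of them (10.4%) had an unadjusted p under 0.05 in limma, where 5.1% of all tested genes did, and on chow 2 (2.1%), where 4.8% of all did.

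Among those 10, *Tamm41*, which makes the CDP-diacylglycerol of mitochondria, was listed at 0 in all 4 ASKO mice and at 2.73 to 11.5 FPKM in the Flox mice on HFD (limma adjusted p = 0.129). *Pcyt2*, the regulated step of phosphatidylethanolamine synthesis, had 8.55 to 17.2 FPKM in ASKO and 0 to 4.23 FPKM in Flox mice on HFD, without overlap (log2 difference 2.19, limma adjusted p = 0.312). *Agpat2*, the lysophosphatidate acyltransferase whose loss causes lipodystrophy, had 57.9 ± 18.2 FPKM in ASKO and 23.2 ± 6.40 in Flox mice on HFD (SD, n = 4 each), a log2 difference of 1.27 (95% interval 0.43 to 2.11, limma adjusted p = 0.824). *Elovl5*, an elongase of polyunsaturated fatty acids, had 15.3 ± 1.33 and 6.59 ± 3.61 FPKM (log2 difference 1.26, limma adjusted p = 0.902). These 4 had the lowest p of their lists, and none passed. On HFD the ASKO and Flox mice were without overlap for each of the 4, as they were for 3.38% of all tested genes. *Tamm41* met the filter through its Flox mice on HFD. In the phospholipase list *Gdpd1* had the lowest p for genotype on HFD, at 0 to 5.96 FPKM in ASKO and 0 to 2.05 in Flox mice, and it did not pass. On chow the differences were -0.42 for *Elovl5*, -0.07 for *Pcyt2* and 0.91 for *Agpat2*, while *Tamm41* was listed at 0 in all 4 Flox mice and had a difference of 0.51.

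Diet moved several genes of these lists. Averaged over both genotypes 14 of the 96 passed (14.6%), with 8 higher and 6 lower on HFD, and 7 (7.3%) passed in Flox mice and 6 (6.2%) in ASKO mice. Over all tested genes the shares were 7.53%, 2.91% and 3.43%. No set test was run, and nothing particular to the lists is read from these shares. Of 22 tested phospholipases and lysophospholipases 2 rose and 3 fell. *Pla2g15*, the lysosomal phospholipase A2, rose by 1.21 on the log2 scale (95% interval 0.65 to 1.76, limma adjusted p = 0.00778), and *Pla2g7*, which degrades platelet-activating factor, rose by 1.88. *Enpp2*, the secreted lysophospholipase D autotaxin, fell by 1.01 (limma adjusted p = 0.00986), from 68.4 ± 6.76 to 27.1 ± 11.8 FPKM in Flox mice and from 55.3 ± 14.7 to 35.4 ± 6.60 in ASKO mice (SD, n = 4 each). In ASKO mice alone its difference was -0.61 with overlapping values (limma adjusted p = 0.397). *Gde1*, a glycerophosphodiester phosphodiesterase, fell by 2.16, and *Pla2g16*, the abundant phospholipase of adipocytes, fell by 0.78. In the same comparison 5 of the 8 adipocyte markers passed and fell, namely *Adipoq* (-1.52), *Pnpla2* (-0.99), *Lipe* (-0.97), *Fabp4* (-0.82) and *Plin1* (-0.81). Another, *Lep*, passed and rose, and 2 did not pass. The part of adipocyte RNA in the falls of *Enpp2*, *Gde1*, *Pla2g16*, *Cept1*, *Crls1* and *Dbi* was not tested.

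Of 14 tested genes of arachidonate oxygenation 2 rose with HFD and 0 fell. *Hpgds*, the haematopoietic prostaglandin D synthase, rose by 2.10 (limma adjusted p = 0.00149) from 0 to 4.24 FPKM in Flox and 1.61 to 4.60 in ASKO mice on chow to 5.35 to 21.2 and 14.4 to 22.2 FPKM on HFD. *Tbxas1*, thromboxane synthase, rose by 2.45 (limma adjusted p = 0.00207). In the MBOAT list *Soat1*, the cholesterol acyltransferase, rose by 2.49 (limma adjusted p = 0.000195), and it was the 1 gene of 3 tested that passed. In the phosphatidylinositol list 3 of 20 tested genes rose, namely the kinases *Pip4k2a* (1.16) and *Pi4k2a* (1.22) and the phosphatase *Inpp5d* (1.18), and 0 fell. On chow *Soat1* was listed at 0 to 1.06 FPKM in Flox and 0 to 0.978 in ASKO mice, and *Tbxas1* at 0 to 1.28 and 0 to 3.35. *Inpp5d* was at 0 to 0.945 FPKM in Flox mice and at 0 in all ASKO mice on chow. *Soat1*, *Tbxas1* and *Inpp5d* thus met the filter through their mice on HFD, where they are high, and their rises are not folds. *Hpgds*, *Tbxas1*, *Soat1* and *Inpp5d* are well expressed in myeloid cells, and the macrophage marker sums given above moved with the same diet comparison. The part of these cells in the values was not tested.

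Of 16 tested genes of other phospholipid synthesis 2 fell with HFD and 0 rose. *Cept1*, the choline/ethanolamine phosphotransferase, fell by 2.63 (95% interval -3.09 to -2.17, limma adjusted p = 8.81e-07), from 131 ± 16.1 to 18.2 ± 4.66 FPKM in Flox mice and from 120 ± 33.8 to 21.2 ± 6.81 in ASKO mice (SD, n = 4 each), with no overlap between diets. Its exons overlap those of *Dennd2d* and *Dram2*, and the larger of these overlaps covers 24.7% of the *Cept1* exon bases, so its fragments are uncertain. *Crls1*, cardiolipin synthase, fell by 1.46 (limma adjusted p = 0.00866). Of 11 genes of acyl-CoA supply 1 fell, *Dbi*, the acyl-CoA binding protein, which fell by 0.95, and of the 9 glycerol-3-phosphate and lysophosphatidate acyltransferases and the 1 tested acyltransferase-like gene (*Tmem68*) none passed. Of the 14 calls 10 held under each alternative, and those of *Dbi*, *Inpp5d*, *Pi4k2a* and *Pla2g16* did not.

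**Figure D5:**
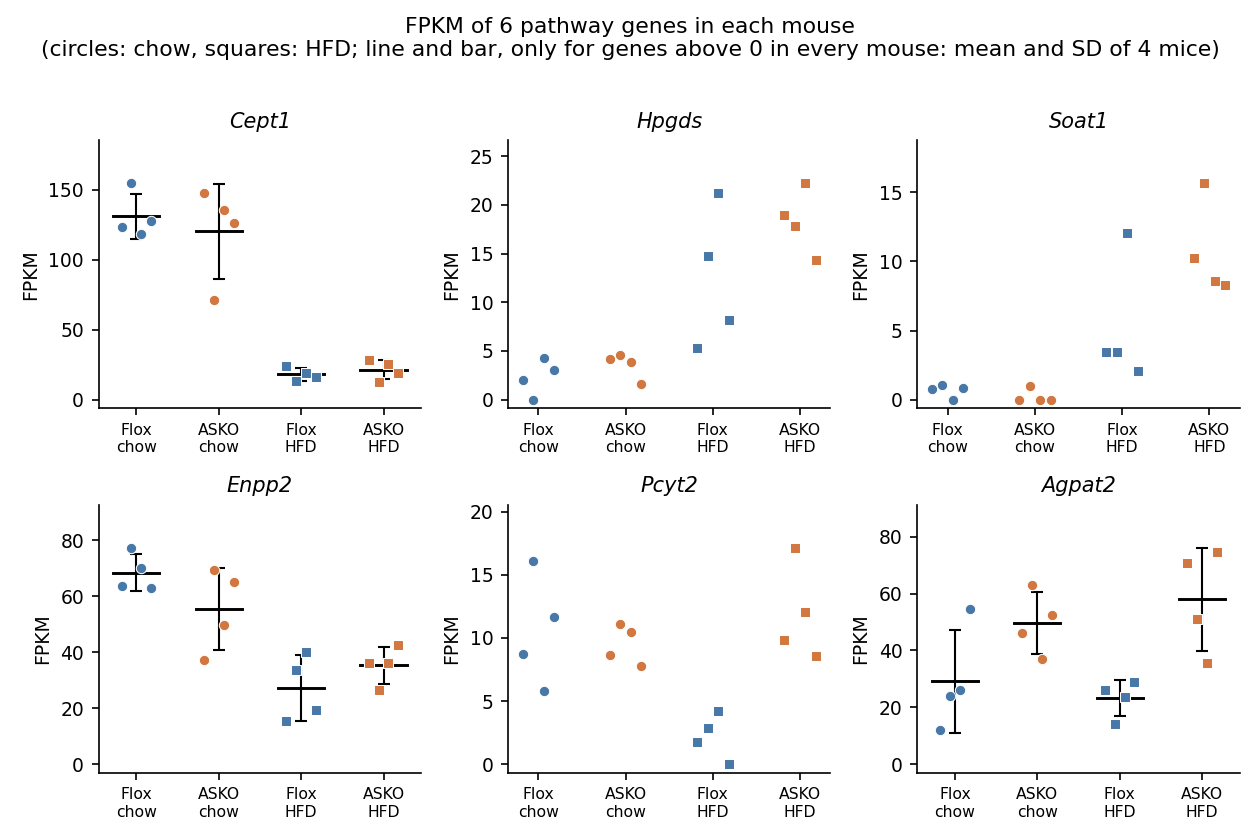
Each point is the FPKM value of 1 mouse for 6 genes of the pathway lists, with the 4 groups on the horizontal axis (blue: Flox, orange: ASKO). Lines and bars (mean and SD of 4 mice) are drawn only for genes above 0 in every mouse. Averaged over the genotypes *Cept1* and *Enpp2* are lower and *Hpgds* and *Soat1* higher on HFD (*Enpp2* overlaps between diets in ASKO mice). *Pcyt2* and *Agpat2* are apart between genotypes on HFD without passing the limits.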

How the data were processed

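Per the methods of the study, RNA from gWAT was made into libraries with a directional mRNA kit, the reads were trimmed with TrimGalore and aligned to mm10 with STAR guided by GENCODE, and the authors deposited FPKM values per gene and mouse made with Cufflinks. The GENCODE release, the library normalization setting and the use of strand in counting are not stated, and 2 sequencer models are named in the sources.

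The deposited FPKM values entered every test as log2(FPKM + 1). Gene models came from GENCODE M21 on GRCm38, which held 99.6% of the identifiers. A spreadsheet had turned 22 names into dates, which were restored from the identifiers, and of 20 symbols on several rows the highest was kept. The 13147 genes that reached 1 FPKM in 4 or more mice entered limma 3.58.1 in R 4.3.3 (all 16 mice in 1 fit, intensity trend, Benjamini-Hochberg adjustment within each contrast). The fit was also run on simulated data with normal noise on the log2 scale. These lack the whole-fragment steps, so that run does not check the fit for low genes. For single members, exact permutation tests were run (two-sided, all arrangements enumerated in Python 3.11.15 with numpy 2.4.6). Each mouse is a separate animal. Named were all members, genes with overlapping exons, and from each list the genes past the limits and the gene with the lowest p for genotype on HFD. The members and lists were chosen with earlier results of these data known.

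The step of 1 fragment was estimated in 1475 coding genes with a lone annotated transcript of at least 1000 bases, from values whose product with that length in kb was below 15, and precision for low genes is set by whole fragments. The alternatives left out each mouse in turn, used only the groups compared, added the replicate number as a block, dropped the intensity trend, changed the scaling (quantile or upper quartile), the filter (none, or 5 FPKM) or the pseudocount (0.1).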

Additional observations from a re-analysis of the deposited data

Results flagged for a closer look

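Of 31 groups of 4 mice in which a member varied, 6 had 1 mouse far from the other 3 by Dixon's test, which chance flags in about 1 group in 20 of continuous values. That rate does not apply here, since in each of the 6 the other 3 mice were listed at 0, and such a group is always marked, whatever the value of the remaining mouse. *Mboat1* stood at 2.37 FPKM in a Flox mouse on chow and at 1.03 FPKM in an ASKO mouse on HFD. *Mboat2* stood at 1.06 FPKM in an ASKO mouse on chow, at 1.083 FPKM in a Flox mouse on HFD and at 0.875 FPKM in an ASKO mouse on HFD. *Lpcat2* stood at 3.14 FPKM in an ASKO mouse on HFD, the same library in which *Mboat1* was above 0 on that diet.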

How the results depend on the processing

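The count of tested members past the limits was 0 in each of the 7 comparisons and in all 165 alternatives, and the lowest adjusted p in them was 0.066 (limma). The titles number the mice 0 to 3 in each group, and the labels do not say whether the numbers pair them. Among 24 pairs of same-numbered mice 1 had deviations from the group means that correlated above 0.1 (r from -0.187 to 0.152). Low correlations cannot decide whether the mice were paired, so this is left unknown. With the replicate block the count stayed at 0, and *Mboat7* differed by -1.12 on chow (exact permutation p = 0.125), by -0.02 on HFD (p = 1) and by -0.57 over both diets (permutation p = 0.141). A pseudocount of 0.1 gave -2.58 on chow, 2.30 times the value with 1, and leaving out 1 mouse gave -1.50 to -0.85 on chow, -0.39 to 0.28 on HFD and -0.76 to -0.42 averaged. Of 388 alternatives for single members 346 kept their side of p = 0.05 without a reversed sign, and differences of exactly 0 are counted among these. A further 41 changed sign. The remaining 1 passed unadjusted, *Lpgat1* between diets in ASKO mice with quantile normalization (0.91, exact permutation p = 0.0286).

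Signs changed as follows. Quantile normalization gave -0.063 for *Lpcat1* by genotype on HFD and -0.046 for *Pla2g4a* by diet in Flox mice, and upper-quartile scaling gave 0.026 for *Lpcat3* by diet in ASKO mice. Leaving out 1 mouse gave -0.30 to 0.57 for *Lclat1*, -0.19 to 0.31 for *Lpcat1*, -0.22 to 0.35 for *Lpgat1*, -0.26 to 0.23 for *Mboat2* and -0.20 to 0.48 for *Pla2g4a* by genotype on HFD, and -0.43 to 0.31 for *Lpcat1* on chow. By diet it gave -0.33 to 0.53 for *Lclat1*, -0.10 to 0.33 for *Lpcat3* and -0.19 to 0.36 for *Pla2g4a* in Flox mice, and -0.39 to 0.27 for *Lpcat3* and -0.26 to 0.23 for *Mboat2* in ASKO mice. The cause was not tested. Of the pathway calls, 10 of 14 averaged over genotypes, 2 of 7 in Flox mice (*Cept1* and *Tamm41*) and 2 of 6 in ASKO mice (*Cept1* and *Soat1*) held in every alternative that tested them. The filter of 5 FPKM left *Tamm41* untested. Outside the Flox mice on HFD it was above 0 only in ASKO replicate 3 on chow (3.16 FPKM), so it met the main filter through the group where it is high. *Soat1* likewise met the main filter through its mice on HFD, where it is high. Of 35 member differences 28 had a mouse whose removal moved them by over 1.5 times. With the pseudocount of 0.1, the *Lpcat1* diet average was 2.42 where 0.96 is reported. All members but *Lpgat1* stood on 20.1 fragments or fewer per mouse.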
